A study of Rattus norvegicus with 8 samples.

Results

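The neurotrophins and their receptors were described in whole hippocampi of rats that received an infusion of corticosterone or of vehicle. The set was the list of 6 genes Bdnf, Ntf3, Ntrk2, Ntrk3, Ngfr and Sort1, and its members were all transcript rows with one of these symbols in the authors' deposited table. Of the 6 genes, 5 were found, with 14 transcripts among the 16266 transcripts and 13272 gene symbols of that table. Ngfr, which encodes the p75 neurotrophin receptor, matched no row under its symbol or its RefSeq synonyms and was not analysed here. The table was made from 8 adrenalectomized rats, 4 in the Vehicle group and 4 in the CORT group, and every rat had its adrenal glands removed, so that both groups lacked adrenal corticosterone. Per the study's methods, all rats also drank corticosterone in saline while they recovered from surgery, and this was replaced by saline alone before the experiment. The Vehicle group was infused for 30 min with 0.45% saline, and the CORT group for 30 min with corticosterone-2-hydroxypropyl-β-cyclodextrin at 0.75 mg/mL. The labels place both the infusion and the sample at zeitgeber time (ZT) 2, where ZT counts the hours from lights on, whereas the series title and the methods put the collection of the tissue 2 h after the infusion began. The labels give an age of 3 to 4 months and Sprague-Dawley rats, whereas the study's methods name male Lister hooded rats and a younger age. The titles of the Vehicle samples call them untreated, and the group was taken from the treatment label.

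Neurotrophins are small secreted proteins that support the survival of neurons and the strength of their synapses. They are made as proneurotrophins, which are cut to the mature ligand. The mature forms act on Trk receptor tyrosine kinases, TrkB (Ntrk2) for BDNF and TrkC (Ntrk3) for NT-3 (Ntf3), and the uncut forms act on p75 together with sortilin (Sort1), which also sorts proBDNF inside the cell. In the hippocampus BDNF is made by excitatory neurons and takes part in long-term potentiation, and Bdnf is transcribed from several start sites, each joined to the same coding exon. Ntrk2 and Ntrk3 also give rise to receptors that lack the kinase domain.

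Each value is in FPKM, fragments scaled to the length of the transcript and to the number of mapped fragments, so that levels can be compared between transcripts of unlike length. Each transcript had 1 value for the Vehicle and 1 for the CORT rats. Per the study's methods, what failed the authors' comparison for low expression was removed, and all 16266 rows had the status OK. Sums, shares and numbers of transcripts of a gene therefore cover only what was kept. Whether a gene without a row, such as Ngfr, was removed in this way is not known. No value for a single rat was used, so no SD and no test between the groups can be given, and the differences have no replicate check. The depth of each library is unknown for the same reason. A transcript was counted as past the fold when the CORT value was at least 1.5 times the Vehicle value or the reverse, without a pseudocount, and when it reached 1 FPKM in at least 1 group. Of all transcripts at that level, 8.45% were past 1.5-fold, 4.00% with the higher value in the CORT group and 4.45% with the lower. In whole tissue, fewer cells of a type and less RNA per cell cannot be told apart.

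The starts of Bdnf are shown first, because its transcripts moved in different directions between the groups. RefSeq sequence of the GRCr8 assembly was at hand for 10 start sites of 3 members, 6 of Bdnf, 3 of Ntf3 and 1 of Sort1. The 250 bases before each start were searched on both strands for 4 motifs: the glucocorticoid receptor hexamer AGAACA, the palindrome of 2 such hexamers with 3 bases between them, the core ACGTCA of the cAMP response element, and the E-box CACGTG. The letters were chosen after these windows had been read, so the matches are no test of anything. The hexamer was found before Bdnf starts 1 and 2, and the cAMP core before Bdnf start 4, counted along the gene. No other member window held any of the 4 motifs, and the palindrome was in none. The windows of Bdnf starts 5 and 6 overlap, as do those of Ntf3 starts 1 and 2, so the 10 windows are not all separate stretches. Among all 33469 windows of the same length, 17.5% held the hexamer, 6.95% the cAMP core, 5.59% the E-box and 0.0120% the palindrome. The 3 Bdnf windows with a match are printed 5′ to 3′ on the plus strand, with the matched letters in capitals. They lie at chr3:116619383-116619632, chr3:116620585-116620834 and chr3:116637608-116637857 of GRCr8. A match of letters is a description of the sequence, and no window could be tied to a transcript of the table, which gives 1 shared locus for all Bdnf transcripts in another assembly.
Bdnf start 1: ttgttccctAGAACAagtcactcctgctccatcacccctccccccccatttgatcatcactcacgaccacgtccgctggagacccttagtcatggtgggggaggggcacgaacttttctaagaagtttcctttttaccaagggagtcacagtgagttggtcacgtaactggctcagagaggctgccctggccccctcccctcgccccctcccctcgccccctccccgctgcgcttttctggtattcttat
Bdnf start 2: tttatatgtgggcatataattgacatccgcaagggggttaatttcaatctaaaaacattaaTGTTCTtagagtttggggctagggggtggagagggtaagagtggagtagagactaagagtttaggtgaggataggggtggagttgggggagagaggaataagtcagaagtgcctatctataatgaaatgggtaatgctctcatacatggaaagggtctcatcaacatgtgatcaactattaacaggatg
Bdnf start 4: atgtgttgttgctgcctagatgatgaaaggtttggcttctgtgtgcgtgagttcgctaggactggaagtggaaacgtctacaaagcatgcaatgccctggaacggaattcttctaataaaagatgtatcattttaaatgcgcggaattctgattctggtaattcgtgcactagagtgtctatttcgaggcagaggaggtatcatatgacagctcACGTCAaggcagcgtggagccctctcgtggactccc

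Bdnf, the ligand of TrkB, was 11.9 FPKM after vehicle and 10.02 FPKM after CORT infusion when its transcripts were summed, a log2 ratio of CORT over Vehicle of -0.25. It was the only member whose sum was lower in the CORT group as the values were deposited. Over all gene symbols at 1 FPKM or more, 20.1% had a log2 ratio at least as far from 0. The sum hid larger and opposite differences between its 6 transcripts, which are numbered here from the highest to the lowest mean FPKM and share the rn6 locus on chromosome 3 between 100768636 and 100819210. Bdnf-1 (ENSRNOT00000078543.1) was 3.87 FPKM after vehicle and 2.38 FPKM after CORT, a log2 ratio of -0.70. Bdnf-2 (ENSRNOT00000073636.2) was 2.95 and 1.57 FPKM, a log2 ratio of -0.91. Both were past 1.5-fold, with the lower value in the CORT group. Bdnf-3 (ENSRNOT00000080190.1) went the other way, from 1.44 FPKM with vehicle to 2.43 FPKM with CORT, a log2 ratio of 0.76, and was also past 1.5-fold. The remaining transcripts differed less. Bdnf-4 (ENSRNOT00000083542.1) was 1.44 and 1.52 FPKM, and Bdnf-5 (ENSRNOT00000077703.1) was 1.29 and 1.499 FPKM. Bdnf-6 (ENSRNOT00000089233.1) was 0.913 and 0.624 FPKM, and so was the 1 member transcript under 1 FPKM in both groups.

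The order of the Bdnf transcripts therefore differed between the groups. Bdnf-1 and Bdnf-2 held 32.5% and 24.8% of the summed Bdnf FPKM in the Vehicle group, and 23.75% and 15.6% in the CORT group. Bdnf-3 held 12.1% in the Vehicle group and 24.3% in the CORT group, where it was the highest of the 6, with 2.43 FPKM against 2.38 FPKM for Bdnf-1. Of the 2265 symbols with several transcripts at 1 FPKM or more, 3.00% had, like Bdnf, a transcript past 1.5-fold in each direction, a share computed after Bdnf was seen to be one of them. The share was not matched to the number of Bdnf transcripts or to their low level, so it does not say how unusual Bdnf is. With 1 FPKM added to both groups, Bdnf-1 (-0.53) and Bdnf-3 (0.49) were no longer past 1.5-fold, and Bdnf then had a transcript past the fold in the lower direction only. The reads of transcripts that overlap were divided between them by estimation, and the spread of that estimate over rats is not known here.

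Ntf3 encodes NT-3, the ligand of TrkC. Its sum was 8.30 FPKM after vehicle and 9.87 FPKM after CORT infusion, a log2 ratio of 0.25. It lies on chromosome 4 of rn6 between 158636883 and 158705886. Ntf3-1 (ENSRNOT00000082009.1) hardly differed, at 5.50 and 5.54 FPKM. Ntf3-2 (ENSRNOT00000087115.1) was 2.79 FPKM after vehicle and 4.32 FPKM after CORT, a log2 ratio of 0.63, just past 1.5-fold, which it no longer reached (0.54) when the CORT values were rescaled to the FPKM sum of the Vehicle group. Its share of the gene was 33.7% after vehicle and 43.8% after CORT. The higher sum of Ntf3 thus came from its lesser transcript. Per length, the Bdnf sum was 1.43 times the Ntf3 sum in the Vehicle group and 1.02 times in the CORT group.

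**Figure D1:**
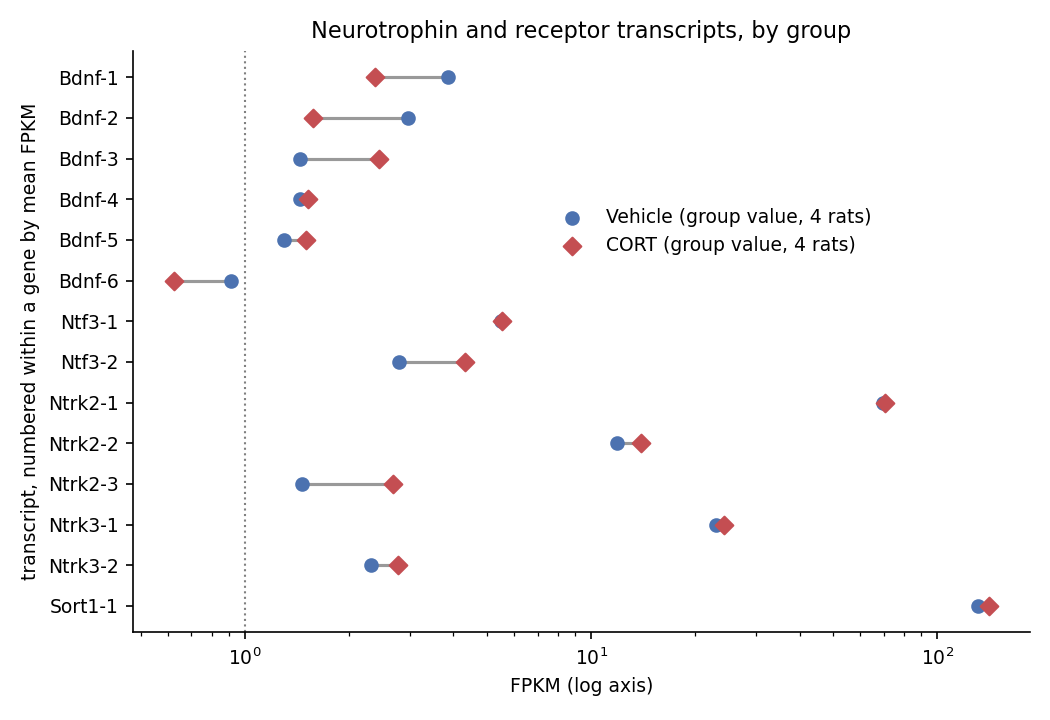
FPKM of the 14 member transcripts on a log axis, with a circle for the Vehicle group value and a diamond for the CORT group value; a grey line joins them, the dotted line marks 1 FPKM, and there is no error bar because each point is 1 group value. The long lines belong to Bdnf-1, Bdnf-2, Bdnf-3, Bdnf-6, Ntf3-2 and Ntrk2-3, which are all under 5 FPKM, whereas Sort1 and the leading transcripts of Ntrk2 and Ntrk3 differ little.

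Ntrk2, the receptor of BDNF, was the higher of the 2 Trk receptor genes described here, with a summed level of 83.3 FPKM after vehicle and 87.2 FPKM after CORT infusion, a log2 ratio of 0.07. After the same rescaling the log2 ratio was -0.023, so no direction is given for it. Its transcripts share the locus on chromosome 17 of rn6 between 5933728 and 6244676. Ntrk2-1 (ENSRNOT00000090914.1) was 69.9 and 70.6 FPKM and held 84.0% of the gene after vehicle and 80.9% after CORT. Ntrk2-2 (ENSRNOT00000082611.1) was 11.9 and 13.9 FPKM, a log2 ratio of 0.23. Ntrk2-3 (ENSRNOT00000042145.2) was the lowest, at 1.46 FPKM after vehicle and 2.68 FPKM after CORT, and its log2 ratio of 0.88 was the highest of the member transcripts, although with 1 FPKM added (0.58) it was just under 1.5-fold. At 1.75% of the gene after vehicle and 3.08% after CORT, it moved the sum of Ntrk2 by little. The table does not say which of these transcripts code for the kinase domain.

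Ntrk3, the receptor of NT-3, was 25.2 FPKM after vehicle and 27.0 FPKM after CORT, a log2 ratio of 0.10. It lies on chromosome 1 of rn6 between 139890559 and 140262503. Ntrk3-1 (ENSRNOT00000025536.5) was 22.9 and 24.3 FPKM, and Ntrk3-2 (ENSRNOT00000041839.3) was 2.31 and 2.76 FPKM. Neither was past 1.5-fold, and Ntrk3-1 held 90.85% of the gene after vehicle and 89.8% after CORT. The 2 Trk genes kept nearly the same ratio to each other, with Ntrk2 at 3.30 times Ntrk3 in the Vehicle group and 3.23 times in the CORT group.

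**Figure D2:**
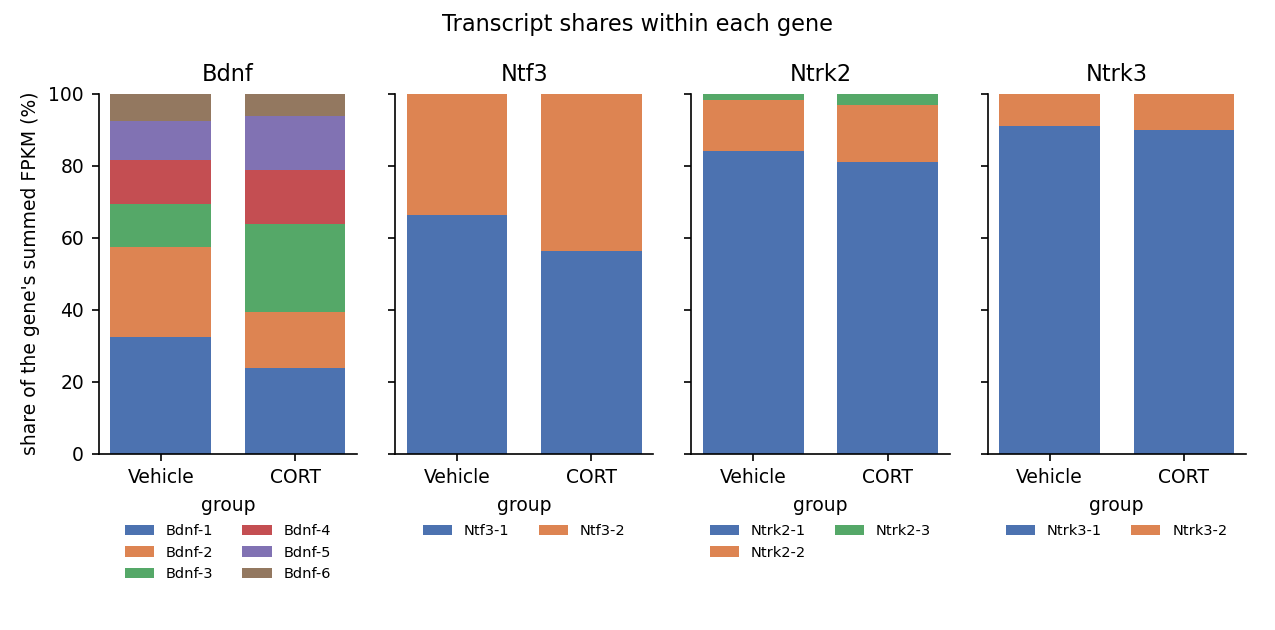
Share of each transcript in the summed FPKM of its gene, in percent, for the 4 members with several transcripts, with the left bar for Vehicle and the right bar for CORT. Bdnf-3 goes from 12.1% to 24.3% and Ntf3-2 from 33.7% to 43.8%, whereas the leading transcripts of Ntrk2 and Ntrk3 hold over 80% of their gene in both groups.

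Sort1, which encodes sortilin, the coreceptor of p75 for proneurotrophins, was the most abundant member, at 131 FPKM after vehicle and 141 FPKM after CORT infusion, a log2 ratio of 0.11. It has 1 transcript among those kept (ENSRNOT00000049127.5), on chromosome 2 of rn6 between 211078333 and 211156312. Its mean level was the 664th highest of all symbols, and Ntrk2 was the 1188th. In both groups the order of the summed levels was Sort1, Ntrk2, Ntrk3, Bdnf and Ntf3. The ligands were far below the receptors, with Ntrk2 at 6.998 times Bdnf in the Vehicle group and 8.71 times in the CORT group, and Ntrk3 at 3.04 and 2.74 times Ntf3. Bdnf and Ntf3 were the closest neighbours in this order, at 10.02 and 9.87 FPKM in the CORT group, and whether any neighbours differ beyond the spread between rats cannot be said.

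Over all members, 5 of the 13 transcripts at 1 FPKM or more (38.5%) were past 1.5-fold, 3 with the higher value in the CORT group and 2 with the lower. All 5 had a mean under 5 FPKM. Of all transcripts with a mean from 1 to under 5 FPKM, 15.8% were past 1.5-fold, and 23.4% of those whose symbol has more than 1 transcript. Of the 8 member transcripts in that range, these 5 were past the fold, and the part of their low level in this was not tested. Among the 5 are Bdnf-1, Bdnf-2 and Bdnf-3, which share 1 locus and had their reads divided between them by estimation. The 5 are therefore not independent of each other. These ranges of level, and the restriction to symbols with more than 1 transcript, were chosen after the values were seen. The 5 member transcripts with a mean of 5 FPKM or more had log2 ratios between 0.01 and 0.23, and 3.05% of all transcripts at that level were past 1.5-fold. When the transcripts of each gene were summed, none of the 5 member genes was past 1.5-fold, against 5.14% of all symbols at 1 FPKM or more, 1.71% with the higher and 3.43% with the lower value in the CORT group. The median log2 ratio of the 5 genes was 0.10, and that of all symbols was 0.02.

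**Figure D3:**
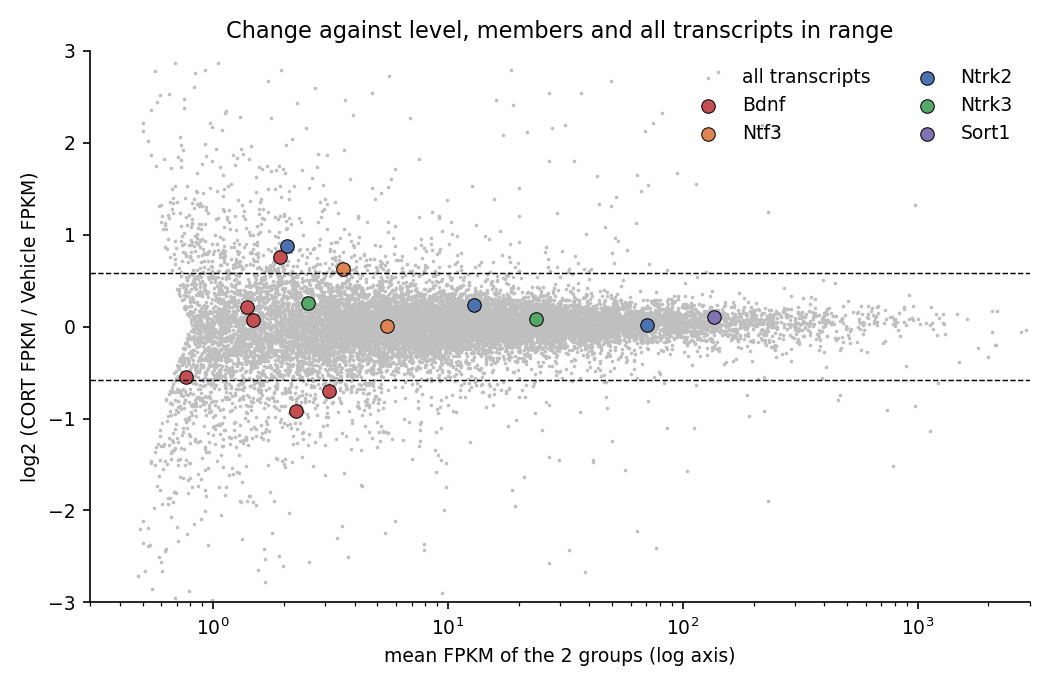
Log2 ratio of CORT over Vehicle FPKM against the mean FPKM of the 2 groups on a log axis, with all transcripts in grey, the member transcripts in colour and dashed lines at 1.5-fold; 91 transcripts lie outside the axes. The grey cloud widens to the left, and the 5 member transcripts beyond the dashed lines sit there, while Sort1, Ntrk2-1 and Ntrk3-1 lie near 0.

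The other ligands and receptors of the family were examined next, as a list of 8 genes of which 6 had a value. None was past 1.5-fold, and the median log2 ratio was 0.03. Sorcs3, a relative of sortilin, was 9.06 FPKM after vehicle and 10.9 FPKM after CORT, and Nradd, a relative of p75, was 1.46 and 1.26 FPKM. Ntf4, which encodes the other TrkB ligand, matched no row. Ntf4 and Sorl1 were not analysed here.

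Downstream of the Trk receptors, none of the 25 adaptor and proximal signalling genes was past 1.5-fold in the values as deposited. The most different in this list were the adaptor Sh2b2, at 1.08 and 0.727 FPKM, which passed the fold when the ratios were centred on their median (-0.59) and when the FPKM sums were made equal (-0.66), and Shc3, the Shc adaptor of neurons, at 4.30 and 5.94 FPKM. Cbl, a ubiquitin ligase of receptor kinases, was 2.98 and 3.91 FPKM, and the small GTPase Rap1a was 37.7 and 29.0 FPKM. None of the 14 genes of the Ras-MAPK arm was past the fold. In this arm Rps6ka1 was 6.96 and 5.35 FPKM and Rps6ka2 was 11.98 and 14.7 FPKM, both encoding kinases that ERK activates, while Hras was 49.9 and 59.2 FPKM and Nras was 20.2 and 17.3 FPKM. Nor was any of the 14 genes of the PI3K-Akt arm, where the log2 ratios lay between -0.071 and 0.32, with Pik3cb at 2.84 and 3.54 FPKM, Gsk3b at 20.4 and 23.5 FPKM, Akt2 at 28.0 and 26.6 FPKM and Pik3ca at 7.99 and 7.75 FPKM. The medians of these 3 lists were 0.07, 0.04 and 0.10.

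The effectors of p75 could be read although the receptor itself could not. All 18 listed effectors had a value, and none was past 1.5-fold. Lingo1, a coreceptor of p75 for myelin inhibitors, was 70.1 and 85.6 FPKM, and the kinase Mapk8 was 17.4 and 20.2 FPKM. Adam17, a protease that cuts p75, was 9.01 and 7.22 FPKM, and Rhoa was 201 and 174 FPKM. Of 17 genes for the cutting and sorting of proneurotrophins, 11 had a value, and none was past the fold. Furin, the protease of the secretory pathway that cuts proneurotrophins, was 12.6 FPKM after vehicle and 13.0 FPKM after CORT, a value named after it was seen. Hap1, which takes part in the transport of BDNF, was 40.4 and 48.5 FPKM, Cadps2 was 14.5 and 16.2 FPKM, and Pcsk7 was 10.4 and 9.90 FPKM.

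Transcription factors that act on the Bdnf gene were within 1.5-fold, with 20 of 21 measured and a median log2 ratio of 0.12. Creb1, which binds the cAMP response element, was 1.54 and 2.10 FPKM. Npas4, an activity-induced factor, was 1.07 and 0.865 FPKM. The receptors of corticosterone are on this list too. Nr3c2, the mineralocorticoid receptor, was 24.1 FPKM after vehicle and 30.2 FPKM after CORT, and Nr3c1, the glucocorticoid receptor, was 32.3 and 26.5 FPKM. Over these 7 lists, 0 of 108 genes were past 1.5-fold, or 1 (Sh2b2, lower) under either rescaling, and their median log2 ratio was 0.075.

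Genes known to be induced by TrkB signalling were examined last. Of the 15 with a value, 5 were past 1.5-fold with the higher value in the CORT group and 1 with the lower, and the median log2 ratio was 0.35. Over all symbols at 1 FPKM or more, 1.71% were past the fold higher and 3.43% lower. The genes of this list were chosen with earlier results of these data known. Egr1 (0.56) was not past the fold after rescaling to equal FPKM sums, which left 4 higher, and Spry2 (-0.58) was not with 1 FPKM added. Egr2 was 0.312 FPKM after vehicle and 1.18 FPKM after CORT, so it was counted only because its CORT value reached 1 FPKM. Fos was 2.87 and 5.38 FPKM, Arc 16.3 and 28.2 FPKM, Nr4a1 12.5 and 21.4 FPKM, and Egr1 20.8 and 32.6 FPKM. Egr2, Fos, Arc, Nr4a1 and Egr1 are immediate early genes, which other inputs to a neuron induce as well. Spry2, a feedback inhibitor of receptor kinase signalling, was lower, at 40.5 and 26.8 FPKM. Klf10 was 10.11 and 10.03 FPKM. Together with the other neurotrophic factors, the 9 lists held 9 of 142 genes past 1.5-fold, or 6.34% against 5.14% of all symbols, with 7 higher and 2 lower in the CORT group, and 5 and 4 after rescaling to equal FPKM sums. As deposited, none of the 9 genes was in the 7 signalling lists, so this share is a mean over unlike lists. All 10 corticosteroid responsive reference genes were past 1.5-fold with the higher value in the CORT group, with a median log2 ratio of 0.915, and 9 of them were when the ratios were centred on their median, rescaled to equal FPKM sums or taken with 1 FPKM added. This list was chosen with earlier results of these data known and is no independent evidence of the response. Pdk4, a kinase that inhibits pyruvate dehydrogenase, was 1.39 and 8.11 FPKM, and the kinase Sgk1 was 32.9 and 74.97 FPKM, while Klf9, with a log2 ratio of 0.60, was the gene lost under these alternatives.

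**Figure D4:**
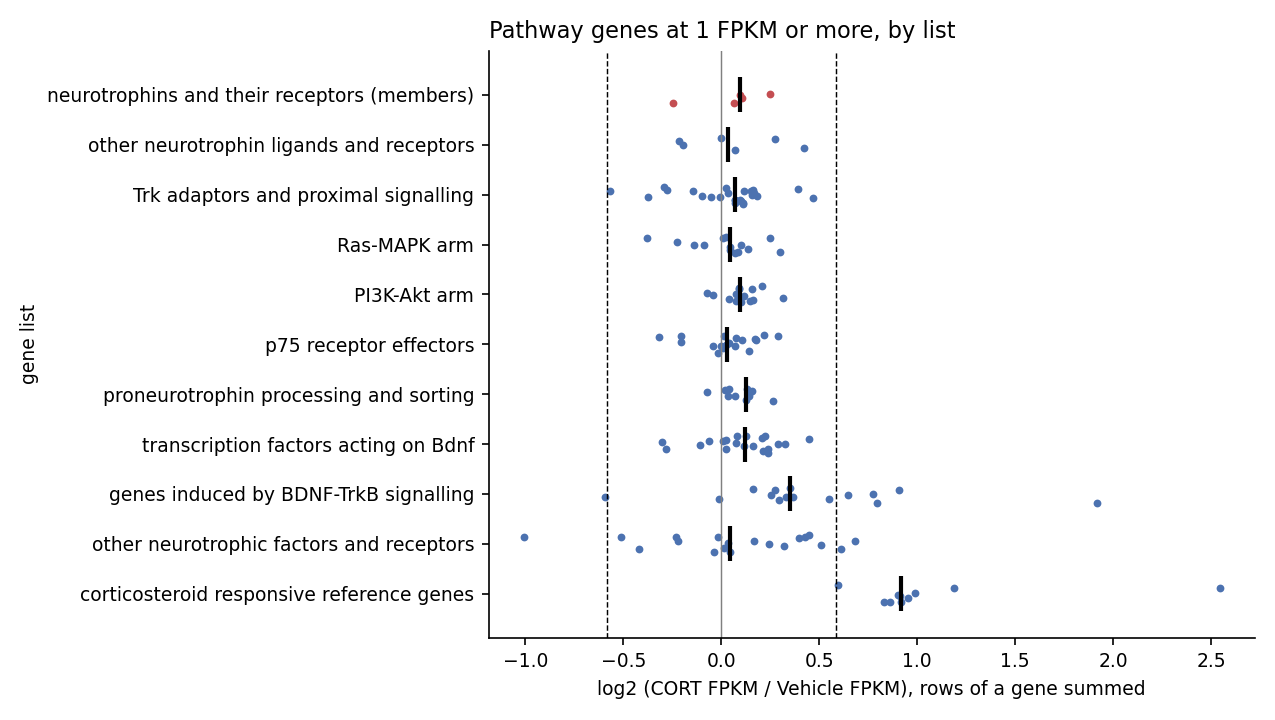
Log2 ratio of CORT over Vehicle for each gene at 1 FPKM or more, with its transcripts summed, by list; points are genes, shifted up or down only for clarity, black bars are list medians and dashed lines mark 1.5-fold. With the values as deposited, the 5 member genes and the 7 signalling lists lie inside the dashed lines, whereas 6 genes induced by TrkB signalling and all 10 reference genes lie beyond them.

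Marker genes of hippocampal excitatory neurons were present, with Slc17a7 at 736 FPKM after vehicle and 794 FPKM after CORT infusion and the dentate marker Prox1 at 10.9 and 8.96 FPKM, while Neurod2, Fibcd1 and Spink8 matched no row. Over the 9 measured markers of this list the summed level was 2765 and 3014 FPKM, with 1 past 1.5-fold higher, Zbtb20 at 1.55 and 2.72 FPKM. The 9 interneuron markers summed to 469 and 579 FPKM, each with the higher value in the CORT group and 1 past 1.5-fold. The 9 astrocyte markers, a cell type that also carries TrkB, summed to 3349 and 2945 FPKM, with 6 lower and 3 higher after CORT. Past 1.5-fold lower were 2, Gfap at 970 and 517 FPKM and Sox9 at 6.86 and 3.70 FPKM. The difference of Gfap alone was larger than that of the sum. The higher ones were Aldoc at 554 and 626 FPKM, Slc1a2 at 159 and 175 FPKM and S100b at 1066 and 1095 FPKM. The oligodendrocyte markers summed to 7378 and 6080 FPKM (11 genes, 8 lower, 0 past the fold). The microglial ones summed to 355 and 306 FPKM, with 9 of 10 genes lower. Only Tmem119 was past the fold, higher, at 5.72 and 11.15 FPKM. After rescaling to equal FPKM sums, 2 microglial markers were past it lower. The endothelial and mural ones summed to 137 and 114 FPKM (9 genes, 8 lower, 2 of them past the fold). Markers of neighbouring tissue were lower in the CORT group as well, with 6 of 10 meningeal markers past 1.5-fold (158 and 113 FPKM summed) and 5 of 8 thalamic and habenular markers at 1 FPKM or more (63.5 and 44.0 FPKM summed over 9). Of those past the fold, Slc47a1, Gpr151 and Chrna3 reached 1 FPKM in the Vehicle group only. The choroid plexus markers summed to 7055 and 7013 FPKM (9 genes, 1 past the fold, higher), and of 8 Schwann cell markers only 3 had a value, summing to 35.9 and 29.4 FPKM. Most of this last sum was Sox10, at 30.0 and 23.8 FPKM, which is also on the oligodendrocyte list. Cdh19 was 2.27 and 1.84 FPKM, and Egfl8 was 3.57 and 3.74 FPKM. No marker with a row was at 0, but no transcript of the deposited table was, so this says nothing of the markers. The part of tissue makeup in the values of the neurotrophin genes was not tested.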

How the data were processed

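Whole hippocampi of 8 rats (4 Vehicle, 4 CORT) were sequenced as paired-end, stranded total RNA libraries. Per the labels and the study's methods, the authors aligned reads to rn6 with TopHat2 2.0.10 and deposited FPKM values from Cufflinks and Cuffdiff 2.2.0, after CASAVA 1.8.2, with geometric normalization between libraries, corrections for multiple mapping, sequence bias and effective length, and a minimum count of alignments per transcript. The deposited table holds 1 FPKM value per transcript and group. It also holds the authors' own fold change, test statistic, p-value and q-value, which were not used.

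Rows were matched by symbol, or for listed pathway and marker genes also by a unique RefSeq synonym. A log2 ratio was taken as CORT over Vehicle, of a row or of the summed rows of a symbol. With 1 value per group no test was run. Named were every member, and from each pathway list up to 2 genes with the highest positive and 2 with the lowest negative log2 ratio. Some genes that this rule would name are not reported here. Arc, Nr4a1, Egr1, Klf9, Furin, Gfap, Sox9 and Zbtb20 were named after their values were seen. So were Aldoc, Slc1a2, S100b, Slc47a1, Gpr151, Chrna3, Pdgfrb, Acta2 and Flt1. The same holds for Slco1a4, Cdh5, Tek, Cldn5, Tmem119, Sox10, Cdh19 and Egfl8. The members, lists and fold threshold were chosen with earlier results of these data known. Promoter sequences are from RefSeq (GRCr8). The counting was tested on simulated data. Python 3.11.15, numpy 2.4.6, pandas 2.3.3 and matplotlib 3.10.9 were used.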

Additional observations from a re-analysis of the deposited data

How the results depend on the processing

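Of 57 alternative values, 10 differed from the reported value by more than 0.1 on the log2 scale, 5 percentage points or, for counts, 1.5 times. The 57 include the CORT share of each leading transcript set against its Vehicle share, which compares the groups and is no processing setting. Those of Bdnf and Ntf3 are among the 10. The count of member transcripts past 1.5-fold, 5 in the report, was 0 at 2-fold, 0 with a minimum of 5 FPKM in at least 1 group, and 1 with 1 FPKM added to both groups, when Bdnf-2 (-0.62) was left. It was 4 after rescaling to equal FPKM sums. The count over the 9 pathway lists, 9 of 142 genes, was 27 at a log2 threshold of 0.32 (20 with the higher value in the CORT group), 2 at 2-fold, 5 with a minimum of 5 FPKM and 6 with 1 FPKM added. With at least 1 FPKM in both groups it was 8 of 138 genes, 6 higher and 2 lower, as Egr2 was left out. The counts of single lists under other scalings were added after seeing the data. With the leading transcript in place of the sum, the log2 ratio of Bdnf was -0.70 in place of -0.25, and that of Ntf3 was 0.010 in place of 0.25. The share of the leading transcript was 23.75% in the CORT group against 32.5% in the Vehicle group for Bdnf, and 56.2% against 66.3% for Ntf3. Under all 6 alternatives Bdnf stayed lower (-0.70 to -0.23) and Ntf3, Ntrk3 and Sort1 stayed higher in the CORT group. Ntrk3 and Sort1 came to 0.008 and 0.016 when the FPKM sums were made equal, a shift of -0.090, which turned Ntrk2 to -0.023. Not all 6 could turn a sign. Adding 0.1 or 1 FPKM to both groups cannot. A minimum of 1 FPKM in both groups removed no transcript of Ntf3, Ntrk2, Ntrk3 or Sort1. The leading transcript of Sort1 is its sum. These values are among the 57. The median log2 ratio of all transcripts was 0.023. Leaving out each rat was not run, for want of values per rat. No paired analysis was possible because each group has a single column of values, with no number of a rat. Without values per rat, neither depth nor a detection limit is known.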

Other observations

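Other neurotrophic factors and their receptors, a list of 26 genes of which 19 reached 1 FPKM, had a median log2 ratio of 0.045, with 2 genes past 1.5-fold higher and 1 lower in the CORT group, 1 and 2 after rescaling to equal FPKM sums, and 0 and 1 with 1 FPKM added. Over all symbols at that level, 1.71% were past the fold higher and 3.43% lower. Fgf2, which encodes basic fibroblast growth factor, was 2.19 FPKM with vehicle and 3.51 FPKM with CORT, and Pspn, which encodes persephin, a ligand of the GDNF family, was 2.55 and 3.89 FPKM. Kdr, the main receptor of VEGF on endothelial cells, was 2.60 and 1.29 FPKM, and Nrtn, which encodes neurturin, was 1.10 and 0.771 FPKM. Each of these values is low. Of the 9 endothelial and mural markers, 8 were also lower in the CORT group, and Flt1 hardly differed, at 5.50 and 5.55 FPKM. The log2 ratios of the endothelial markers Slco1a4, Cdh5, Tek and Cldn5 were -0.55, -0.53, -0.44 and -0.16. As deposited, the 2 past 1.5-fold were the mural markers Pdgfrb, at 7.52 and 4.97 FPKM, and Acta2, at 10.6 and 6.25 FPKM. Slco1a4 (-0.64) and Cdh5 (-0.62) were also past it after rescaling to equal FPKM sums. With 1 FPKM added, Pdgfrb (-0.51) was not. The part of tissue makeup in the value of Kdr was not tested.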
